A study of Mus musculus with 8 samples.

Results

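In cultured mouse cortical neurons, 1355 of 60611 regions of open chromatin carried a peak in neurons lacking Brg1 after KCl and in wild-type neurons with and without KCl, but none in neurons lacking Brg1 without KCl. The 4 peak lists were merged into regions wherever peaks shared at least 1 bp on chromosomes 1 to 19, and the 1355 were those with a peak in every list except cKO basal. The regions were chosen by the presence or absence of peaks in these 4 lists, so their absence from cKO basal and presence in the other lists is a description and carries no test. Of the 8398 regions with a peak in the 3 other lists, they made up 16.1%, and the remaining 7043 regions had a peak in all 4 lists.

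Open chromatin was mapped by ATAC-seq, which uses a transposase, Tn5, to tag DNA that nucleosomes leave free, in primary neurons from the cortex of E16.5 embryos. The 4 groups were neurons with genotype BAF53bCre Brg1F/F (cKO) exposed to 50 mM KCl for 1 h, the same genotype without KCl (basal), Brg1 WT neurons (WT) with 50 mM KCl for 1 h, and Brg1 WT neurons without KCl. Each group had 2 libraries of 50000 cells and 1 deposited list of nucleosome-free peaks, and how the 2 libraries were combined is not given in the sources used here. No value below therefore has a replicate error, and the intervals given are exact 95% Clopper-Pearson intervals that cover counting error only. Cultures to be depolarised received the blockers TTX (1 µM) and APV (100 µM) on day 5 in vitro and KCl on day 6, and the labels do not state whether basal cultures received the blockers. The Cre is driven by BAF53b (Actl6b), a gene of postmitotic neurons, so other cells of a culture would keep Brg1. Whether the WT cultures carried Cre is not stated.

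Brg1, encoded by Smarca4, is an ATPase of the BAF complex, which uses ATP to move or evict nucleosomes and so keeps enhancers and promoters accessible. In neurons the complex contains neuronal subunits such as BAF53b and Ss18l1 (CREST), and mutations of its subunits are known causes of neurodevelopmental disorders. KCl depolarises neurons, calcium enters through voltage-gated channels, and transcription of activity-regulated genes follows. Smarca4 itself was not among the 1355 regions. Its gene-end region had a fold over local background of 5.62 in cKO KCl, 5.21 in cKO basal, 5.32 in WT KCl and 4.89 in WT basal. A peak at the start of a gene does not report on the deletion, so the labels were not checked by it.

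The promoters of 7 of the 1355 regions are shown first, because these regions ranked highest of those with a promoter window in the RefSeq table. Regions were ranked by the lowest percentile of their fold within the 3 lists, where fold is the authors' own enrichment of a peak over its local background. The sequences are RefSeq promoter windows of GRCm38.p6, 250 bases before to 50 after the gene start, written 5′ to 3′ on the gene's strand. Capitals mark matches on either strand to 6 short motifs, those of NFY (CCAAT), ETS (CCGGAAGT), NRF1 (GCGCATGC), SP/KLF (GGGGCGGGG), YY1 (AAGATGGCG) and the CRE core (TGACGT), and a match is a run of letters and not evidence of binding. Donson (chr16:91688679-91688978, minus strand) acts at replication forks. Zfp719 (chr7:43579336-43579635, plus strand) is a zinc finger gene. Etaa1 (chr11:17953826-17954125, minus strand) encodes an activator of the ATR kinase. Mrps33 (chr6:39810887-39811186, minus strand) encodes a protein of the small mitochondrial ribosomal subunit. Zscan2 (chr7:80860681-80860980, plus strand) is a SCAN-domain zinc finger gene. Ube2t (chr1:134962315-134962614, plus strand) encodes the ubiquitin-conjugating enzyme of the Fanconi anaemia pathway. Dctn5 (chr7:122132791-122133090, plus strand) encodes a dynactin subunit, and its region also covered the promoter of Palb2 on the opposite strand, which encodes the partner of Brca2.
Donson: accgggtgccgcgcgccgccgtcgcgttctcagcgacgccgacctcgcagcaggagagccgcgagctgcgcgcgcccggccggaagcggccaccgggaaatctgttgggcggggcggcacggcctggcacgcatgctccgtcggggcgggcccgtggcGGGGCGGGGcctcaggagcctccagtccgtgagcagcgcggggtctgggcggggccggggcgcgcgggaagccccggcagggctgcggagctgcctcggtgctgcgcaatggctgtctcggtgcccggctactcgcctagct
Zfp719: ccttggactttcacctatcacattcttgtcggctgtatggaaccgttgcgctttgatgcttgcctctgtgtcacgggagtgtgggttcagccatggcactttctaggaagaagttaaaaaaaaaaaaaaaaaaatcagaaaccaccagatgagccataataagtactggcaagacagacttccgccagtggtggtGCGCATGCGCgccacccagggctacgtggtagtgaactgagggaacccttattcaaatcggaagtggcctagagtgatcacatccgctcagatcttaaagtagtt
Etaa1: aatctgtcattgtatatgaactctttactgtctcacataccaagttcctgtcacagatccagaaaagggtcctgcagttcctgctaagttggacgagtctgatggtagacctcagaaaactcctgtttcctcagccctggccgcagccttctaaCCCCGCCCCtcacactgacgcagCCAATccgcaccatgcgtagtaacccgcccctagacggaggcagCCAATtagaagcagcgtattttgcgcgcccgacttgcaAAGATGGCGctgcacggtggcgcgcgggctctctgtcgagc
Mrps33: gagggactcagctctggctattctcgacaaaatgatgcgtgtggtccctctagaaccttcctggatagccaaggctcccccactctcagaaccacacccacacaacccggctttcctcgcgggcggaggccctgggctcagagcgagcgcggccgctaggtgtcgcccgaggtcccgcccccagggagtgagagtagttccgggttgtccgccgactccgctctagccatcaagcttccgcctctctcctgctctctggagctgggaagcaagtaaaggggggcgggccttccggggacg
Zscan2: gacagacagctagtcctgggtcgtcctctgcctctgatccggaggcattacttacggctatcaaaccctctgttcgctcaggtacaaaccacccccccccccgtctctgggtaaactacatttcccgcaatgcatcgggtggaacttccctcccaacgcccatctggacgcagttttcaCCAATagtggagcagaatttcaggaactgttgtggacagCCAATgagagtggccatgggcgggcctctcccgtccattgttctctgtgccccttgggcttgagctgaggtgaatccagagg
Ube2t: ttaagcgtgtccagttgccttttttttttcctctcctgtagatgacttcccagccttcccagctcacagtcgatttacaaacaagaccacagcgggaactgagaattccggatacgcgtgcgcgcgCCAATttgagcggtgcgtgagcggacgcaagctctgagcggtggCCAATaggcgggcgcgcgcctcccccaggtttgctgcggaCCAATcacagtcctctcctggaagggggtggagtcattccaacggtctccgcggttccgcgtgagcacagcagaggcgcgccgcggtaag
Dctn5: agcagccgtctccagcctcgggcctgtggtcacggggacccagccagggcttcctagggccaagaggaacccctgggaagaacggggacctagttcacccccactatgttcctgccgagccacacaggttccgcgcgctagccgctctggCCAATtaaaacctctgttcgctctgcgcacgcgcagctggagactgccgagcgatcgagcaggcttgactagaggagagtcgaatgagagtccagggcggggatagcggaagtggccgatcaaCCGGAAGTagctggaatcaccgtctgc

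These promoters differed from each other in composition and in the motifs they held. Donson was the richest in G and C, at 77.7%, with 1 SP/KLF match. Zfp719 had 47.7% G and C and overlapping NRF1 matches on both strands. Etaa1 carried 2 NFY matches, 1 SP/KLF match and 1 YY1 match. Mrps33 held no match to the 6 motifs, and Zscan2 carried 2 NFY matches. Ube2t carried 3 NFY matches, and Dctn5 carried 1 NFY and 1 ETS match. The median peak summit of the 3 lists lay 71 bp from the gene start at Donson, 158 bp at Zfp719, 28 bp at Etaa1, 67 bp at Mrps33, 16 bp at Zscan2, 16 bp at Ube2t and 35 bp at Dctn5, so the summit at Zfp719 lay farthest from the start.

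The lists differed in length, and the count of 1355 has to be read beside that. On chromosomes 1 to 19, the cKO KCl list held 24947 peaks, cKO basal 19921, WT KCl 19847 and WT basal 33328. Local background at its most frequent value, a measure of depth recovered from fold and p-value, was 8.36 fragments in cKO KCl, 9.47 in cKO basal, 8.23 in WT KCl and 9.30 in WT basal. By this measure cKO basal, the list without the 1355 peaks, had the highest value. The lowest pileup that was called at that background was 20 fragments in cKO KCl, 22 in cKO basal, 20 in WT KCl and 21 in WT basal. A peak at that background thus needed most fragments in cKO basal. The part of depth or of this limit in the missing peaks was not tested.

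A region could equally be missing from any of the other lists, which gives the background for the count. Of the regions with a peak in the 3 other lists, 16.1% lacked one in cKO basal, 5.65% in cKO KCl, 16.7% in WT KCl and 5.4% in WT basal. The cKO basal and WT KCl lists, which were the shortest, thus had similar shares, with counts of 1355 and 1411, against 422 for cKO KCl and 402 for WT basal. When every list was cut to its 19847 peaks of lowest p-value, 12.5% of regions were missing from cKO basal, 5.37% from cKO KCl, 13.4% from WT KCl and 8.16% from WT basal. Regions missing from cKO basal alone therefore stayed more frequent than those missing from cKO KCl or WT basal alone at equal length, and about as frequent as those missing from WT KCl alone. Whether list length, library quality or genotype sets these shares cannot be told apart with 1 list per condition.

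**Figure D1:**
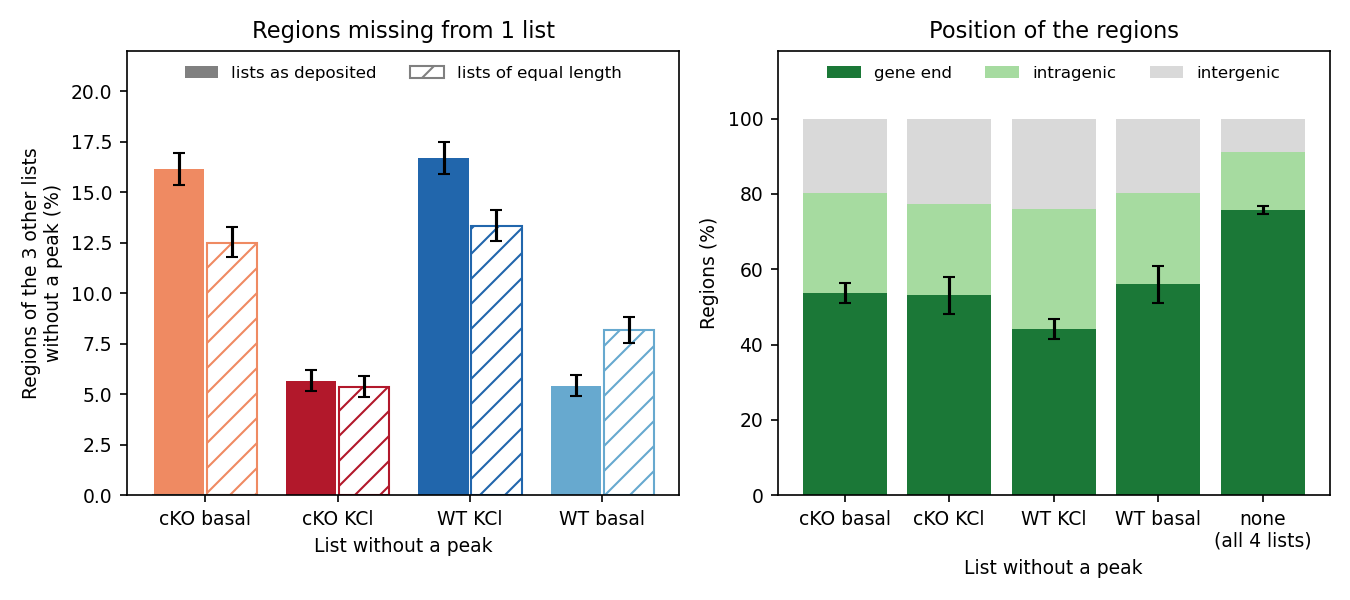
Left, percent of regions with a peak in the 3 other lists that lacked a peak in the named list, with lists as deposited (filled) and cut to equal length (hatched), and exact 95% intervals as error bars. Right, percent of regions at gene ends, inside genes and between genes for the regions missing from each list and for those of all 4 lists, with the interval of the gene-end share. The bars for cKO basal (16.1%) and WT KCl (16.7%) stand above those for cKO KCl (5.65%) and WT basal (5.4%), and gene ends make up 53.7% of the regions missing from cKO basal.

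Seen from the wild-type lists, 9951 regions carried a peak in both. Of these, 25% (2486 regions) had no cKO basal peak, and 54.5% of those 2486 had a cKO KCl peak and are the 1355. In the mirror case, 15.6% of the 9951 (1553 regions) had no cKO KCl peak, and 27.2% of those had a cKO basal peak. Both comparisons use the same WT lists. Seen from the cKO lists, 60.4% of the 24325 cKO KCl regions had no cKO basal peak (14693 regions), and 9.22% of these lay in both WT lists, 14.8% in WT KCl, 24.9% in WT basal and 69.6% in neither. Among the cKO KCl regions with a cKO basal peak, 73.1% lay in both WT lists. The 1355 are thus a minority of the regions listed in cKO KCl and not in cKO basal. Of the 32640 WT basal regions, 69.2% had no cKO basal peak, and all but the 1355 of those lacked a peak in at least 1 other list as well.

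The peaks of the 1355 regions were of middling strength in the lists that held them. Their median fold was 3.21 in cKO KCl, 3.09 in WT KCl and 3.01 in WT basal, at median percentiles of 59.1, 54.7 and 64.1 within the lists in the same order. Regions of all 4 lists had median percentiles of 83.5 in cKO KCl, 79.4 in WT KCl and 87.9 in WT basal. Regions missing from WT KCl only stood at 59.3 in cKO KCl and 65.3 in WT basal, close to the 1355. Those missing from cKO KCl only had 44.75 in WT KCl and 56.1 in WT basal. Those missing from WT basal only had 50.6 in cKO KCl and 48.05 in WT KCl. Middling strength was thus not particular to the 1355. Median pileup at the summits of the 1355 was 34 fragments in cKO KCl, 31 in WT KCl and 35 in WT basal, and the lowest was 21, 20 and 22 in the same order. Membership therefore rested on small fragment counts at each summit.

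Strong peaks were rarely missing from cKO basal. The share without a cKO basal peak was 37.9% (95% interval 30.4 to 45.9) in the lowest decile of WT basal peaks by fold, 48.5% (41.2 to 55.7) in decile 3 and 2.59% (2.06 to 3.21) in the highest decile. With peaks ranked by fold in cKO KCl, the lowest decile gave 45.0% and the highest 2.51%, and with WT KCl they gave 35.2% and 2.25%. Above the median fold in all 3 lists were 449 of the 1355 (33.1%) and 5217 of the regions of all 4 lists (74.1%). In the top 10% of all 3 lists were 2 of the 1355, the regions at Donson and Zfp719, and 1279 of the regions of all 4 lists (18.2%).

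**Figure D2:**
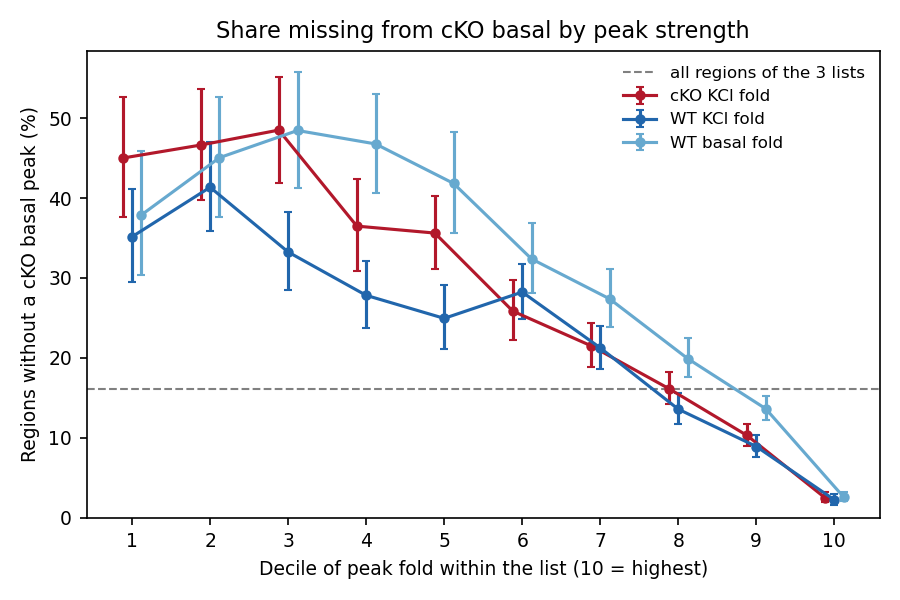
Percent of regions of the 3 lists that lacked a cKO basal peak, by decile of peak fold within cKO KCl, WT KCl or WT basal, with exact 95% intervals; the dashed line is the 16.1% over all such regions. All 3 curves fall to between 2.25% and 2.59% in the highest decile.

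**Figure D3:**
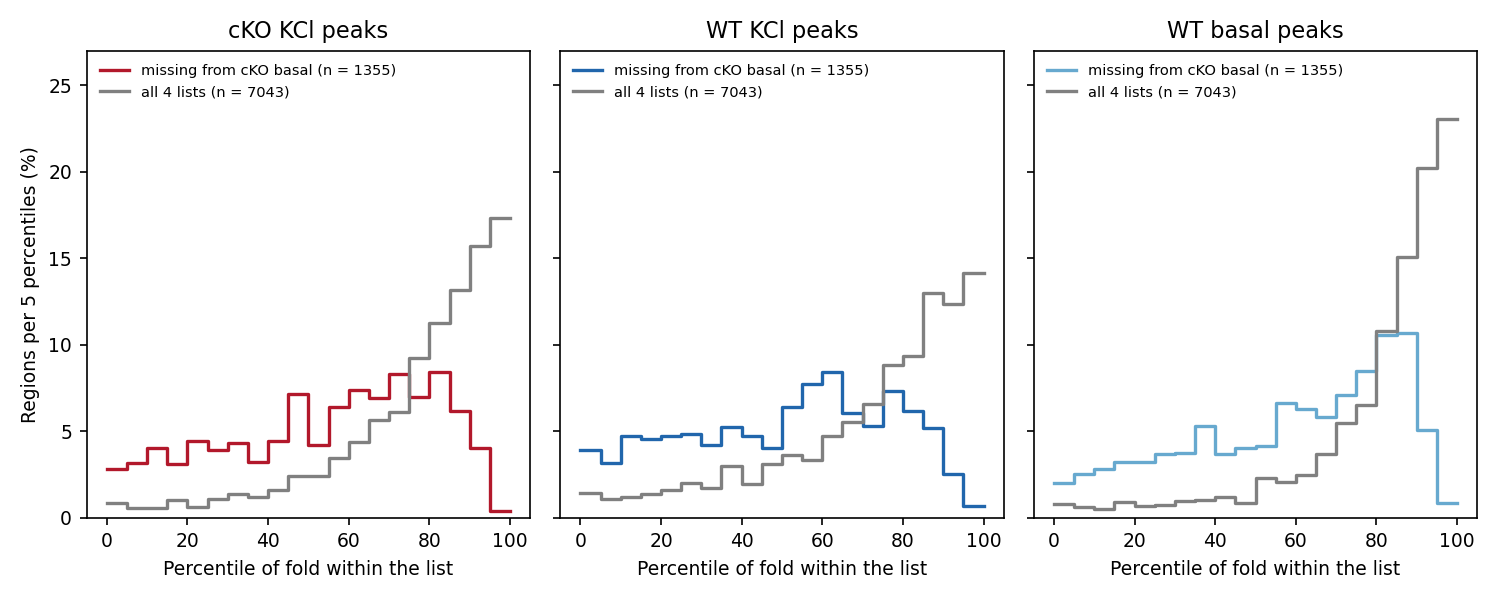
Distribution of the fold percentile within cKO KCl, WT KCl and WT basal for the 1355 regions missing from cKO basal (coloured) and the 7043 regions of all 4 lists (grey), as percent of regions per 5 percentiles. The coloured lines spread over the whole range and drop in the highest bins, where the grey lines peak.

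At the edge of the rule, presence turned on peaks of low −log10 q, as the authors' deposited lists give it, which are those nearest to not being called. The weakest peaks among the 1355 were inside Usp46, which encodes a deubiquitinase, with a −log10 q of 3.81 in cKO KCl, 1.505 in WT KCl and 3.32 in WT basal, then 180093 bp from the nearest end of Ptprt, a receptor tyrosine phosphatase gene, with 6.15, 1.61 and 4.96 in the same order, and at Taldo1, a gene of the pentose phosphate pathway, with 3.72, 6.14 and 1.61. Just outside the rule were regions of all 4 lists with the weakest cKO basal peaks. These lay 72404 bp from an end of Mef2c, with a −log10 q of 1.78 in cKO basal, 1483 bp from an end of Rundc3b, with 1.78, and at Gltp, with 1.81. The lowest −log10 q of the cKO basal list on chromosomes 1 to 19 was 1.31.

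Most of the 1355 were single sites. Exactly 1 peak in each of the 3 lists made up the region in 1273 cases (94.0%). The median region width was 489 bp, against 678 bp for regions of all 4 lists and 265 bp over all regions. Regions missing from 1 other list had median widths of 464.5 bp for cKO KCl, 456 bp for WT KCl and 459.5 bp for WT basal. The 3 summits lay within 100 bp of each other in 40.5% of the 1355 and in 59.0% of regions of all 4 lists, with a median span of 126 bp and 80 bp in the same order. Most lay far from any cKO basal peak, at a median of 21276 bp. A cKO basal peak within 100 bp was found for 17 of them, within 500 bp for 117 and within 1 kb for 168 (12.4%). The part of shifted peak boundaries in these was not tested. By chromosome, the share of regions missing from cKO basal ran between 12.4% (interval 8.66 to 16.9) on chromosome 19 and 18.8% (14.4 to 23.9) on chromosome 18, and these intervals overlap.

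By position, 728 of the 1355 (53.7%, interval 51.0 to 56.4) lay within 1 kb of either end of a protein-coding gene and are called gene-end regions. A further 359 (26.5%) were inside genes and 268 (19.8%) between genes. Regions of all 4 lists had 75.8% at gene ends, 15.4% inside genes and 8.80% between genes. Regions missing from 1 other list had gene-end shares of 53.1% for cKO KCl, 44.2% (41.5 to 46.8) for WT KCl and 56.0% for WT basal, so the share among the 1355 was close to those missing from cKO KCl or WT basal and above that of regions missing from WT KCl. Of the 728, 539 were at the start of a gene by RefSeq strand, 14 at the end, 35 at both, and for 140 no strand was given. The 627 regions away from gene ends had a median distance of 19043 bp to the nearest gene end, and 29.2% of them lay over 50 kb away, against 13764 bp and 23.8% for regions of all 4 lists.

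Read the other way, 12% of gene-end regions of the 3 lists were missing from cKO basal, 24.9% of those inside genes and 30.2% of those between genes. Peak strength differs between these classes, so the shares were also taken within bins of WT basal fold. Above the 90th percentile, 1.75% (1.27 to 2.34) of gene-end regions, 4.62% (2.76 to 7.20) of regions inside genes and 8.56% (5.23 to 13.0) of regions between genes were missing. Between the 75th and 90th percentiles the shares were 11.7%, 19.6% and 30.1% in the same order. At or below the median they were 39.3%, 50.7% and 49.7%. Gene-end regions thus had the lowest share in each of these bins.

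At gene ends, the strongest region covered the start of Donson and lay within 1 kb of an end of Cryzl1 (chromosome 16, 91688577 to 91689290). Its peaks had a fold of 5.35 in cKO KCl, 4.56 in WT KCl and 4.60 in WT basal, on pileups of 53, 43 and 49 fragments. A cKO basal peak began 111 bp from it, so this region is one of those near a peak of the missing list. Zfp719 had a fold of 4.99 in cKO KCl, 4.33 in WT KCl and 4.31 in WT basal. Etaa1 had 5.02, 4.22 and 4.18 in the same order, and its nearest cKO basal peak was 741837 bp away. All of these peaks stood at or above the 89th percentile of their own list.

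Mrps33 had a fold of 5.13 in cKO KCl, 4.44 in WT KCl and 4.18 in WT basal. Zscan2 had 5.19, 4.68 and 4.15 in the same order. Ube2t had 4.60, 5.31 and 4.86, at percentiles of 89.1, 97.6 and 94.3. Folds of different lists rest on different depths, so they rank peaks within a list and were not compared between lists. The shared start of Palb2 and Dctn5 had 5.77, 4.87 and 4.08, at percentiles of 96.3, 95.7 and 88.9.

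The remaining regions among the 12 strongest at gene ends were at Kcnn2, Glo1, Gm12258, Tomm7 and Mroh1. Kcnn2 (chromosome 18, 45268242 to 45268542), which encodes a small-conductance calcium-activated potassium channel, had a fold of 5.05 in cKO KCl, 4.14 in WT KCl and 4.66 in WT basal, and a cKO basal peak lay 430 bp away. Glo1, the glyoxalase that detoxifies methylglyoxal, had 4.49, 4.55 and 4.25. Tomm7, a subunit of the mitochondrial import pore, had 5.24, 4.22 and 3.98. Over all 12 regions, the lowest percentile in the 3 lists ran between 85.9 at Mroh1 and 92.9 at Donson.

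Away from gene ends, the strongest region lay 65.4 kb from Cpeb2, a regulator of mRNA translation (chromosome 5, 43355124 to 43355597), with a fold of 4.68 in cKO KCl, 4.39 in WT KCl and 4.59 in WT basal. Inside Unc79, whose product belongs to the NALCN sodium leak channel complex, a region had 5.13, 4.12 and 4.33. Inside Cdh18, a cadherin gene, a region 321.3 kb from the outer end of any gene had 4.49, 4.98 and 4.47. The regions inside Unc79 and Cdh18 each overlapped a RefSeq promoter window of that gene, at a start inside the gene body, as did those inside Srsf11 and Ift74 among the 12 strongest. The nearest cKO basal peaks to the regions at Cpeb2, Unc79 and Cdh18 lay 120869, 69883 and 115163 bp away. Over all 627 regions away from gene ends, 80 (12.8%) overlapped such a window, against 28.2% of those of all 4 lists, so this class holds some gene starts.

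The 12 strongest away from gene ends also included 2 regions in or near the protocadherin alpha cluster on chromosome 18. The alternative promoters of this cluster give neurons distinct surface proteins. Within 50 kb of Pcdha1, all 3 regions of the 3 lists were missing from cKO basal. In the window of Gm37013, which overlaps Pcdha1, 4 of 5 were missing. Over all protein-coding genes, 15.5% of the regions near genes were missing. One (37218156 to 37218462) had a fold of 5.02 in cKO KCl, 4.01 in WT KCl and 4.47 in WT basal, and the other (37178288 to 37178807) had 4.76, 3.90 and 4.76. Of the rest, regions lay inside Srsf11, a splicing factor gene, Ift74, a gene of intraflagellar transport, and Dock2, a Rac activator gene, and near Arrdc3, Cap1, Arl4a and LOC115488129. The region 76.5 kb from Arl4a had the highest cKO KCl fold of these 12, at 5.56, with 3.90 in WT KCl and 5.15 in WT basal.

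**Figure D4:**
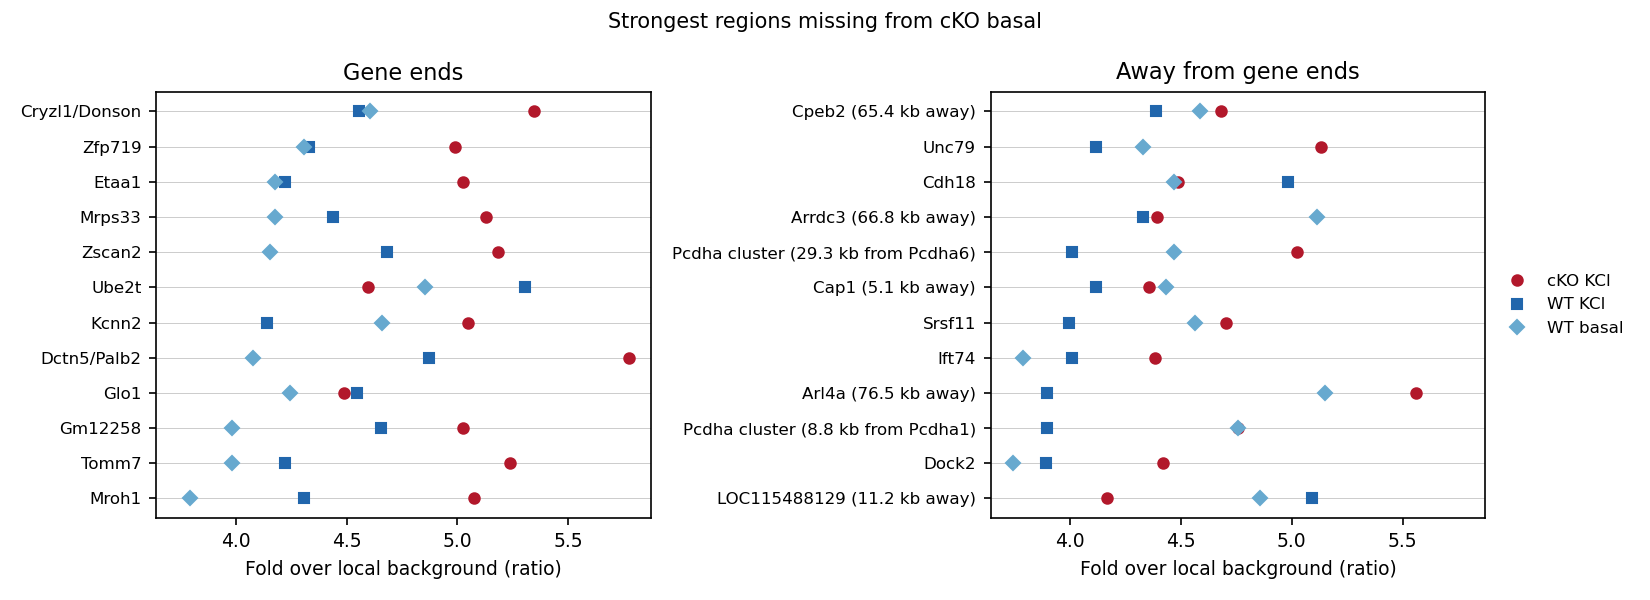
Fold over local background in cKO KCl (circles), WT KCl (squares) and WT basal (diamonds) for the 12 strongest regions missing from cKO basal at gene ends (left) and the 12 strongest away from them (right), ranked by their lowest percentile, with the strongest at the top. No cKO basal value exists for these regions, and folds lie between 3.74 and 5.77.

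Promoter sequence was compared for the regions that overlapped a RefSeq window, which were 569 of the 1355 (42.0%, interval 39.4 to 44.7) and 65.4% of the regions of all 4 lists. Windows on both strands were covered by 39 of the 569 (6.85%), against 10.5% for regions of all 4 lists. The median summit lay 2 bp upstream of the gene start for the 569 and 39 bp upstream for regions of all 4 lists. Median G and C content was 62.0% in the 672 promoters of the 1355 regions, 64.7% in the 5724 promoters of regions of all 4 lists and 57.0% over all 20085 promoters. The ratio of observed to expected CpG exceeded 0.6, a usual limit for CpG islands, in 82.4%, 89.2% and 48.9% in the same order.

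Of 18 motifs searched on both strands, 15 had overlapping intervals in promoters of the 1355 and in promoters of regions of all 4 lists. CCAAT, the NFY motif, was in 33.5% (29.9 to 37.2) of promoters of the 1355, 43.8% (42.5 to 45.1) of those of all 4 lists and 38.1% of all promoters. TATAAA was in 8.04% (6.09 to 10.4), 3.86% (3.38 to 4.39) and 12.7%. CNAGGNGGC, a slice of the CTCF motif, was in 11.3% (9.02 to 13.95), 15.4% (14.5 to 16.4) and 10.0%. For these 3 motifs the intervals of the 1355 and of all 4 lists do not overlap. Promoters under any other region had CCAAT in 32.38% (30.85 to 33.94), TATAAA in 6.93% (6.12 to 7.81) and CNAGGNGGC in 12.85% (11.77 to 13.99). Those intervals overlap the intervals of the 1355 for all 3 motifs. The difference from regions of all 4 lists was thus not particular to the 1355. The SP/KLF letters GGGGCGGGG were in 23.4%, 26.8% and 15.7%, the ETS letters CCGGAAGT in 8.93%, 9.77% and 5.28%, and the NRF1 letters GCGCATGC in 7.44%, 5.98% and 3.55%. Of the motifs of activity-regulated factors, TGACGT, the CRE core, was in 11.6% (9.28 to 14.3), 14.6% (13.7 to 15.5) and 8.59%. The full CRE, TGACGTCA, which contains it, was in 3.42%, 3.93% and 2.30%, and TGANTCA, the AP-1 motif, in 3.57%, 3.11% and 7.06%. The SRF motif was in 0.893%, 1.12% and 1.43%, and the MEF2 motif in 0.446%, 0.157% and 0.498%. Motif content of promoters moves with their G and C content, and the part of the latter in these shares was not tested.

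Genes were then read in 24 lists covering 548 genes, with a region tied to a gene when it lay within 50 kb of the gene body. Over all protein-coding genes, 16% had at least 1 of the 1355 regions in that window, and 15.5% (14.7 to 16.3) of the 8061 regions of the 3 lists near genes were missing from cKO basal. Windows of neighbouring genes share regions, so lists are not independent of each other. Gene-end members named for a list below are those at an end of a listed gene itself. Other regions of a list can lie at an end of a neighbouring gene. The highest shares came from excitatory neuron identity, interneuron, and progenitor and Notch genes. The lowest came from vascular genes, with 0 of 6 regions, then glutamate and GABA receptor genes and synapse genes. The intervals of most lists include the background. In the lists of excitatory neuron identity and of progenitor and Notch genes the lower bounds, 22.9% and 16.3%, lay above 15.5%. That background mixes gene-end regions (12%) with regions away from gene ends (26.1%), and lists differ in this mix. The intervals of the 24 lists were not corrected for their number, and the bound of 16.3% is close to the background. With a window of 10 kb, where the background was 15%, these lists had shares of 32.0% (14.95 to 53.5) and 27.3% (6.02 to 61.0), on 25 and 11 regions, and both intervals then included it. Interneuron genes had 5 of 7 at 10 kb (71.4%, 29.04 to 96.3), above that background, against 38.5% of 13 regions at 50 kb.

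**Figure D5:**
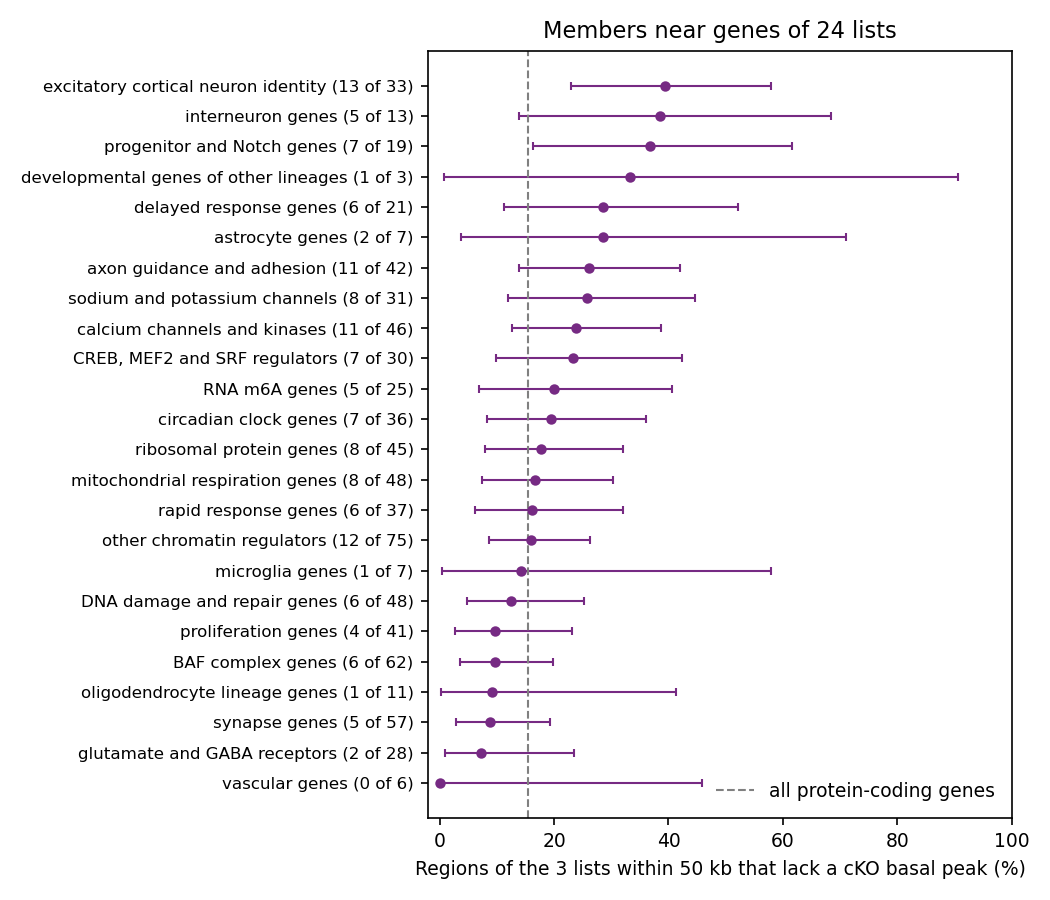
Percent of the regions of the 3 lists within 50 kb of each list's genes that lacked a cKO basal peak, with exact 95% intervals and, in brackets, the counts behind each share; the dashed line is 15.5%, the share over all protein-coding genes. Excitatory neuron identity genes (39.4%) stand at the top, and vascular genes, with 0 of 6 regions, at the bottom.

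Around genes of excitatory cortical neuron identity, 13 of 33 regions were missing from cKO basal (39.4%, 22.9 to 57.9), and 9 of the 26 genes had at least 1. None of the 13 was at an end of a listed gene. Nfix, a nuclear factor I gene of neural differentiation, accounted for 4 of 6 regions in its window, and 9 of 27 (33.3%) remained without it. Of the Nfix regions, those at chromosome 8, 84655656 to 84655997 and 84664077 to 84664403, were also within 50 kb of Ier2 and of Cacna1a and are counted in those lists too. Away from gene ends, 11 of the list's 20 regions (55.0%, 31.5 to 76.9) were missing, against 26.1% (24.2 to 28.1) for all genes.

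By the lowest percentile, the strongest site of that list lay inside Nfia, another nuclear factor I gene, with a fold of 3.85 in cKO KCl, 3.68 in WT KCl and 3.50 in WT basal, and these peaks stood at or above the 78th percentile of each list. A region inside Sox5, a transcription factor gene of deep-layer neurons (chromosome 6, 144056736 to 144057511), had a fold of 6.07 in cKO KCl, 3.25 in WT KCl and 4.66 in WT basal, the highest values of the list in cKO KCl and WT basal but not in WT KCl. It was the only region of the 3 lists in the Sox5 window. Pou3f3, a POU factor gene of upper layers, had 2 of 3 regions missing, with folds of 4.20 in cKO KCl, 2.75 in WT KCl and 2.97 in WT basal at one and 2.97, 3.36 and 3.77 at the other.

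Interneuron genes had 5 of 13 regions missing (38.5%, 13.9 to 68.4). Here 4 genes had the missing region at their own end. Dlx5, a homeobox gene of GABAergic neurons, had a fold of 3.99 in cKO KCl, 2.77 in WT KCl and 4.54 in WT basal. Sox6, a transcription factor gene, had 3.74, 4.22 and 2.62, Calb1, which encodes the calcium buffer calbindin, had 3.42, 3.03 and 3.89, and Adarb2, an RNA editing enzyme homologue, had 3.10, 4.28 and 3.98. Progenitor and Notch genes had 7 of 19 missing (36.8%, 16.3 to 61.6), 1 each near Emx1, Eomes, Fabp7, Id1, Nes, Pax6 and Sox2. Fabp7, a fatty acid binding protein gene of radial glia, had its gene-end fold at 3.42 in cKO KCl, 2.71 in WT KCl and 3.50 in WT basal. The region inside Sox2, 0.9 kb from the nearest end of that gene, had 2.84, 3.00 and 2.69, all below the median of their lists.

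Among activity-regulated genes, the rapid response list had 6 of 37 regions missing (16.2%, 6.19 to 32.0), close to the background. Its gene-end member was Atf3, a stress-responsive bZIP factor gene, with a fold of 2.81 in cKO KCl, 2.71 in WT KCl and 2.39 in WT basal. The others were near Btg2, Egr2, Ier2 (2 regions) and Nr4a1. None of the 1355 lay within 50 kb of Fos, Junb, Arc or Npas4. Most genes had none, since 5 of the 23 genes of the rapid response list and 16% of all protein-coding genes had at least 1. The delayed response list had 6 of 21 missing (28.6%, 11.3 to 52.2), including both regions in the window of Bdnf, which encodes the activity-regulated neurotrophin.

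The Bdnf regions lay inside the gene on chromosome 2. The first (109677150 to 109677778) had a fold of 3.13 in cKO KCl, 3.07 in WT KCl and 2.86 in WT basal, on 30, 32 and 30 fragments. The second (109693419 to 109694558) had 3.36, 2.82 and 3.40, on 31, 25 and 34 fragments. Nptx2, a secreted pentraxin gene that clusters AMPA receptors, had a gene-end fold of 3.15, 3.23 and 2.58. A region 1.3 kb from Bhlhe40 had 4.14, 2.76 and 4.10. Of the factors that act on such genes, the list of CREB, MEF2 and SRF regulators had 7 of 30 missing (23.3%, 9.93 to 42.3), with gene-end regions at Elk4, a partner of SRF, and Mef2d. Mef2d had a fold of 2.40 in cKO KCl, 2.87 in WT KCl and 2.28 in WT basal, at percentiles of 4.93, 37.8 and 4.74, on 39, 42 and 42 fragments.

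Genes of the BAF complex had 6 of 62 regions missing (9.68%, 3.64 to 19.9). Gene-end members were beside Ss18l1, the neuronal subunit CREST, at Brd9, a subunit of the non-canonical complex, and beside Bcl11a. Bcl11a is both a BAF-associated protein and a neuronal transcription factor. The region beside Ss18l1 lay 0.2 kb outside that gene and covered an end of Mtg2. Which end of Ss18l1 it lies beside was not resolved here. Its fold was 4.70 in cKO KCl, 3.72 in WT KCl and 4.27 in WT basal. Brd9, in a region shared with Trip13, had 2.73, 3.54 and 3.63, and a cKO basal peak lay 1 bp from it. Bcl11a had 2.80, 2.31 and 2.46. Other chromatin regulators had 12 of 75 missing (16%, 8.55 to 26.3), of which 8 were at an end of some protein-coding gene. The 1 at an end of a listed gene was at Smarca5, the ISWI ATPase Snf2h, with 3.80, 3.66 and 4.27 and a cKO basal peak 903 bp away.

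Calcium channel and kinase genes had 11 of 46 regions missing (23.9%, 12.6 to 38.8). Cacna1a, the pore subunit of P/Q-type channels, had all 3 of its regions among them, of which 2 are the chromosome 8 regions shared with Nfix and Ier2. Cacna1d, an L-type channel gene, had 2 of 3, with folds of 4.09 in cKO KCl, 3.49 in WT KCl and 3.72 in WT basal at the stronger one. The gene-end member at Camk2g, a calcium/calmodulin kinase gene, was weak, at 2.89, 2.29 and 2.50. Without Cacna1a the list stood at 8 of 43 (18.6%). Sodium and potassium channel genes had 8 of 31 missing (25.8%, 11.9 to 44.6). The windows of Kcnn2 and Kcnd3 held 2 each, and those of Kcna2, Kcnc2, Kcnn3 and Kcnq3 held 1 each. Of these, 1 Kcnd3 region lay 36.4 kb outside that gene, and the Kcnq3 region lay 37.6 kb outside Kcnq3. In this list 7 of the 8 lay away from gene ends.

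Synapse genes had 5 of 57 regions missing (8.77%, 2.91 to 19.3), inside Dlg2 and Nrxn3, near Nlgn2 and, with 2 regions, near Vamp2. Glutamate and GABA receptor genes had 2 of 28 (7.14%, 0.877 to 23.5), inside Grm5 and 18.2 kb from Gabrb1. No gene-end region of a gene in either list was missing from cKO basal, and 19 synapse genes and 11 receptor genes had a gene-end region in the 3 lists. Axon guidance and adhesion genes had 11 of 42 missing (26.2%, 13.9 to 42.0), with gene-end members at Ncam1, Efna5, Epha4, Cdh11 and Plxna4. Ncam1, the neural cell adhesion molecule, had a fold of 4.37 in cKO KCl, 4.90 in WT KCl and 3.42 in WT basal, with a cKO basal peak 798 bp away. Efna5, an ephrin ligand gene, had 3.31, 3.71 and 3.80 at its end, and Epha4, an ephrin receptor gene, had 3.14, 2.59 and 2.83.

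Lists of housekeeping and other general functions had intervals that included the background of 15.5%. Ribosomal protein genes had 8 of 45 regions missing (17.8%, 8.002 to 32.1), with gene-end members at Rpl3 and Rpl23. Mitochondrial respiration genes had 8 of 48 (16.7%, 7.48 to 30.2), with gene-end members at Sdhd, Ndufs3 and Uqcrc1. Proliferation genes had 4 of 41 (9.76%, 2.72 to 23.1), near Pcna, Rrm1, Mcm7 and Top2a, and DNA damage and repair genes had 6 of 48 (12.5%, 4.73 to 25.3). In the repair list, Parp2, a poly(ADP-ribose) polymerase gene, had a fold of 3.85 in cKO KCl, 4.95 in WT KCl and 7.23 in WT basal, on 35, 47 and 74 fragments, and the WT basal value was the highest in that list among the 1355. Circadian clock genes had 7 of 36 (19.4%, 8.19 to 36.0), with 2 regions at Npas2. RNA m6A genes had 5 of 25 (20%, 6.83 to 40.7). Among these, Mettl14, a subunit of the m6A methyltransferase, had a gene-end fold of 5.88 in cKO KCl, 3.90 in WT KCl and 5.73 in WT basal, and Zc3h13, another part of that enzyme complex, had 4.06, 4.66 and 3.30.

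Markers of other cell types were read from gene-end peaks in each list. Of 8 neuronal markers, 6 had one in cKO KCl, 6 in cKO basal, 6 in WT KCl and 7 in WT basal, and Rbfox3 had none in any list. Of 5 markers of excitatory cortical neurons 1 had such a peak in each list, Tbr1 in cKO KCl and cKO basal and Bcl11b in WT KCl and WT basal, and Slc17a7 and Neurod2 were among those with none in any list, so a gene-end peak is not a complete read of cell identity here. Of 4 inhibitory neuron markers, 1 had a peak in cKO KCl, 1 in cKO basal, 1 in WT KCl and 0 in WT basal. The counts in the same order of lists were 1, 2, 1 and 2 of 4 for oligodendrocytes, 1, 2, 1 and 1 of 4 for endothelium and 2, 1, 0 and 2 of 4 for neural progenitors. Microglial markers had 0 of 4 in every list. Astrocyte markers had 0 of 4 in cKO KCl, cKO basal and WT KCl and 3 of 4 in WT basal, with Aqp4 the one without. Near astrocyte genes, 2 of 7 regions were missing from cKO basal (28.6%, 3.67 to 71.0), those near Aldh1l1 and Slc1a3. The lists of oligodendrocyte, microglial, vascular and other-lineage developmental genes had 1 of 11, 1 of 7, 0 of 6 (upper bound 45.9%) and 1 of 3. Since bulk open chromatin cannot separate fewer cells of a type from less opening per cell, the part of other cells in the 1355 was not tested.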

How the data were processed

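Each of 4 conditions had 2 ATAC-seq libraries and 1 peak list. Per the submitters' processing notes, Bowtie2 and MACS2 were used with GRCm38 (mm10), with versions, duplicate handling, the Tn5 shift and replicate pooling not given in the sources used here. Deposited columns, in narrowPeak layout without header, hold a score (not used), a fold over local background at the summit (a ratio), −log10 p and −log10 q, and the summit's distance in bp along the peak. The read depth of the lists is not in the files. A whole-number pileup that solved fold and p-value together, within 0.001 in −log10 p, was recovered for 100% of the peaks the authors deposited, and its background served as relative depth. PCR duplicates could inflate pileups.

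Peaks on chromosomes 1 to 19 were merged at 1 bp of overlap. Genes were from RefSeq GRCm38.p6, and 567 of 568 list entries matched. Promoter windows and miRNAs came from the RefSeq tables of that build, and no genome sequence was used, so sequences away from promoters were not analysed here. Python 3.11.15, pandas 2.3.3 and SciPy 1.17.1 were used, and the merging and annotation code was tested on simulated data. Regions and gene lists were chosen with earlier results of these data known. Named are the 12 strongest regions at gene ends and the 12 strongest away from them by lowest fold percentile over 3 lists, the 3 weakest, those at an end of a listed gene, and up to 4 genes per list with most regions within 50 kb. The text describes a choice among these. Alternatives covered overlap, q threshold, list length, summit windows, sex chromosomes and distance limits.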

Additional observations from a re-analysis of the deposited data

Results flagged for a closer look

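The X chromosome was outside the chromosomes used for the 1355 regions, and it held the same kind of region. With a peak in cKO KCl, WT KCl and WT basal and none in cKO basal there were 32 regions on X, of 184 with a peak in those 3 lists (17.4%, exact 95% interval 12.2 to 23.7). On chromosomes 1 to 19 the share was 16.1%. Gene ends on X with such a region included Nono, Maoa and Pcdh19, which were picked after the values were seen.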

How the results depend on the processing

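No paired analysis was possible because each condition had 1 list and no values per replicate, and for the same reason no replicate could be left out. The number of regions, 1355, ran between 957 (lists cut to equal length) and 1388 (X and Y added) under all 9 alternatives. The share of regions missing from cKO basal, 16.1%, was 15.2% with a −log10 q of at least 3 in every list, 13.1% with that limit in the 3 other lists only, 12.5% at equal list length and 18.6% with 200 bp around each summit. The gene-end share, 53.7%, was 59.9%, 58.5%, 56.8% and 57.2% under the same 4 settings. It was 50.0% with gene ends within 500 bp, 58.6% within 2 kb and 42.0% by overlap with a promoter window. The 121 genes of the lists with a region within 50 kb became 75 within 10 kb and 164 within 100 kb. The promoter window, and leaving out regions with a cKO basal peak within 1 kb, which left 1187, were chosen after seeing the data. Peaks of about 30 fragments limit each call, since presence is a threshold on few fragments and no list has a replicate. Gene expression was not measured by these files.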

Other observations

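The items below were picked after their values were seen. One region on chromosome 11 (75173420 to 75173952), 1991 bp from an end of Ovca2, covered the hairpin of Mir132 whole and that of Mir212 in part, microRNAs known to be induced by neuronal activity through CREB. Its fold was 2.08 in cKO KCl, 2.17 in WT KCl and 2.38 in WT basal, on 35, 32 and 42 fragments, and these were among the lowest folds of the cKO KCl and WT KCl lists, at percentiles of 0.255 and 0.393. A cKO basal peak lay 10174 bp away. The 3p arms from RefSeq GRCm38.p6 are printed to show that they share a seed, bases 2 to 8, in capitals.
miR-132-3p: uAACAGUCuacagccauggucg
miR-212-3p: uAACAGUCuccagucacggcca

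In all, 34 microRNA hairpins overlapped regions of the 3 lists and 5 of them overlapped regions missing from cKO basal, the others being Mir3081, Mir5136 and Mir7075. The 5 hairpins lay in 4 regions. Over all regions of the 3 lists 16.1% were missing from cKO basal, so 5 of 34 is close to the background.

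Of the 627 regions away from protein-coding gene ends, 61 (9.73%, 7.52 to 12.3) were within 1 kb of an end of a long non-coding RNA gene, against 253 of 1705 (14.8%, 13.2 to 16.6) for regions of all 4 lists. Genes with zinc finger names such as Zfp, Zbtb and Zscan made up 29 of the 827 genes with a gene-end region missing from cKO basal (3.51%, 2.36 to 5.00), 170 of 6082 with one in all 4 lists (2.80%, 2.40 to 3.24) and 2.21% of all protein-coding genes. Wwc1, which encodes the synaptic and Hippo pathway protein KIBRA, had all 4 regions in its window missing from cKO basal. It was among the genes with the most such regions. Over all protein-coding genes, 15.5% of regions near genes were missing.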
